A study of Mus musculus with 2 samples.

Results

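The 10 genes described here carry the microRNA pathway from the primary transcript to the silenced messenger RNA. They are Drosha, Dgcr8, Xpo5, Dicer1, Tarbp2, Ago1, Ago2, Ago3, Ago4 and Tnrc6a, and they were taken by symbol from the count matrices of the series, in which all 10 were found among 32285 genes. The mutant library came from mouse embryos labelled Nfatc1-Cre, Dicer loxp/loxp, and the control library from wild type embryos, whose label names no Cre and no floxed allele. Both hold mitral leaflet cells of E17.5, pooled from 3 to 4 hearts per genotype, freed with 0.05% trypsin and sorted with 7-AAD, a dye for dead cells, and their 3′ ends were counted with unique molecular identifiers (UMIs). The Cre is named after Nfatc1, a transcription factor of endocardium and valve endothelium, but the labels give neither its construction nor the floxed exons of Dicer1, and the files hold no reporter of recombination. There was 1 library per genotype, so genotype, pool and library preparation cannot be told apart, no test between genotypes was possible, and every interval below is a 95% interval that covers counting error only.

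In the nucleus the Microprocessor, formed by the nuclease DROSHA and its RNA-binding partner DGCR8, cuts a hairpin out of the primary transcript, and exportin 5 (Xpo5) carries it to the cytoplasm. There DICER1, with the double-stranded RNA-binding protein TARBP2, cuts off the loop, and an Argonaute keeps a single strand as its guide. Ago2 encodes the Argonaute that can also cleave its target. TNRC6A, also called GW182, binds Argonaute and brings in the deadenylases that shorten the tail of the target. Valve endothelial cells and, in part, the interstitial cells of the leaflet descend from endocardium that expresses Nfatc1.

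The transcripts of this machinery hold matches to microRNA seeds themselves, and a few are shown for Tnrc6a, Dicer1 and Ago2, for 3 of 17 seed families searched. These families were picked after the counts were seen, and other matches in the same transcripts are left out of the display. A seed is bases 2 to 8 of the mature microRNA, in capitals in these mature sequences from RefSeq (GRCm38.p6), grouped by shared seed.
mmu-miR-30a-5p: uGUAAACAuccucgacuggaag
mmu-miR-30c-5p: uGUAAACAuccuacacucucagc
mmu-miR-103-3p: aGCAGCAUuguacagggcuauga
mmu-miR-107-3p: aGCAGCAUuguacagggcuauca
mmu-let-7a-5p: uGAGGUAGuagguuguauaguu

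The 3′ untranslated region (UTR) of Tnrc6a, 2345 bases long in GENCODE M21 on GRCm38, held 4 copies of TGTTTAC, the complement of the miR-30 seed read on the transcript strand. They are given 5′ to 3′ with the match in capitals and lie on the plus strand at chr7:123193370-123193392, chr7:123193658-123193680, chr7:123193697-123193719 and chr7:123194457-123194479.
Tnrc6a copy 1: ctgttccagtgtagaTGTTTACt
Tnrc6a copy 2: cacggtgaaccttctTGTTTACa
Tnrc6a copy 3: ttttgagaaaaaaaaTGTTTACt
Tnrc6a copy 4: tcagtggcttttaacTGTTTACa
Of all 20847 annotated 3′ UTRs, 12.7% held the heptamer. Among the 2542 of 0.8 to 1.25 times the length, 23.8% held it, and 1, that of Tnrc6a itself, had 4 copies or more. This was the rarest such count over all genes and families searched, so it was picked as an extreme. Tnrc6a also held 2 copies of the miR-23 heptamer and 1 each of those of miR-17/20, miR-19, miR-26 and miR-27. The miR-30 pair above differs only outside the seed, as does the pair of miR-103 and miR-107, so the letters cannot assign a match to a single family member.

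The 3′ UTR of Dicer1, 3851 bases long, held no copy of the miR-30 heptamer or of CTACCTC, the complement of the let-7 seed. It held 1 copy of ATGCTGC, which pairs with the seed of miR-103 and miR-107, on the minus strand at chr12:104690169-104690191.
Dicer1: ctgatgcttcatgtaATGCTGCa
That heptamer was present in 10.2% of all 3′ UTRs and in 26.8% of the 1516 UTRs of similar length, so a single copy is common. Dicer1 also held 2 copies each of the miR-24 and miR-27 heptamers, a number reached by 9.76% and 8.64% of UTRs of similar length, and 1 each of those of miR-19, miR-29 and miR-125. The let-7 heptamer was present in 8.03% of all 3′ UTRs and in 43.3% of the 67 similar in length to the 11064-base one of Ago2. Of these 67, 1, that of Ago2 itself, had 3 copies or more. The 3 copies of Ago2 lie on the minus strand at chr15:73101724-73101746, chr15:73100040-73100062 and chr15:73097982-73098004.
Ago2 copy 1: acagatgcataaaagCTACCTCt
Ago2 copy 2: caggtggcctctgtcCTACCTCc
Ago2 copy 3: ttttacaatgtggatCTACCTCa
Ago2 also held 3 copies each of the miR-30 and miR-27 heptamers, 2 each of the miR-15/16 and miR-125 heptamers and of the one shared by miR-103 and miR-107, and 1 each of those of miR-17/20, miR-19, miR-21, miR-23, miR-24 and miR-221. A match describes the letters of the transcript and was not tested as a site of regulation. No small RNA was measured in these libraries.

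The files held 8250 mutant and 12793 control barcodes with 69475632 and 70221728 UMIs, of which 6190 mutant and 10297 control cells were kept, at medians of 9497 and 5665 UMIs. The barcode sequences of 19 cells occurred in both files, 11 of them among kept cells. Cells were sorted into classes by marker genes, in clusters built without the 10 genes. By expression of Xist and of Y-linked genes, 42.5% of mutant cells were female-type and 37.1% male-type, against 93.5% female-type and 1 male-type cell in the control library. Valve endothelial-like cells numbered 322 in the mutant and 1269 in the control library, in cluster 6, led by Plvap and Npr3, and cluster 11, led by Hapln1 and Wnt4. Valve interstitial-like cells numbered 612 and 2333, in clusters 1 and 8. Macrophage-, cardiomyocyte-, mural-, epicardial-, granulocyte- and mast or basophil-like cells, 1290 mutant and 1538 control, were summed as the pooled other classes. Coronary capillary and arterial endothelial-like cells and other fibroblast-like cells were kept apart from that sum, since their origin is mixed. The clusters were named from lists of markers, so a high sum of its own list in a class was set in advance. In valve endothelial-like cells the 11 valve endothelial markers summed to 3255 CPM (UMIs of a gene scaled to 1e6 UMIs of the class) in the mutant and 2693 CPM in the control library. In valve interstitial-like cells the 12 valve interstitial markers summed to 8949 and 9738 CPM. Of these lists 9 of 11 and 2 of 12 markers were higher in the mutant library, and none was at 0 in either library.

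Nfatc1, after which the Cre is named, was higher in both valve classes than in the pooled other classes. The labels do not say in which cells the Cre was active. In valve endothelial-like cells it stood at 154 CPM in the mutant and 126 CPM in the control library, and in valve interstitial-like cells at 72.2 and 78.9 CPM. The pooled other classes had 13.2 CPM in the mutant and 10.5 CPM in the control library. Nfatc1 is 1 of the 11 valve endothelial markers, so its level in that class is in part a matter of how the class was named.

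Dicer1 (ENSMUSG00000041415, GRCm38 chr12:104687742-104751952, minus strand, 27 exons in the transcript used) was lower in the mutant library in both valve classes, and most so in valve endothelial-like cells. There 131 UMIs gave 40.6 CPM (33.9 to 48.2) in mutant cells, and 609 UMIs gave 89.8 CPM (82.8 to 97.3) in control cells. The 2 intervals lie apart. The log2 ratio of mutant over control was -1.14 (-1.43 to -0.87), which leaves 45.3% of the control level. Valve interstitial-like cells had 51.5 CPM in the mutant and 72.9 CPM in the control library, a log2 ratio of -0.50 (-0.69 to -0.31). In the pooled other classes the values were 46.2 and 50.8 CPM, and the log2 ratio of -0.14 (-0.30 to 0.03) had an interval that reaches past 0. A 3′ tag outside the deleted exons is still counted from a recombined allele, so these values check neither the deletion nor the protein.

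The difference of the log2 ratios sets each valve class against the pooled other classes and against some of the classes kept apart from that pool. For Dicer1 it was -1.005 (-1.34 to -0.68) between valve endothelial-like cells and the pooled other classes, and -0.36 (-0.62 to -0.11) between valve interstitial-like cells and that pool. Valve endothelial-like cells were also below valve interstitial-like cells, by a difference of -0.64 (-0.99 to -0.31). They were below coronary capillary endothelial-like cells by -0.81 (-1.13 to -0.50) and below arterial endothelial-like cells by -0.89 (-1.36 to -0.44). The difference from lymphatic endothelial-like cells was not taken. With female-type cells only, the difference from arterial endothelial-like cells was -0.56 with an interval across 0 (-1.17 to 0.06). Against other fibroblast-like cells, the valve interstitial-like difference was -0.42 (-0.69 to -0.16), but it was -0.14 (-0.42 to 0.14) with the stricter cell filter, -0.14 (-0.41 to 0.14) when clustered without genes that differ between the libraries, and -0.27 (-0.58 to 0.04) without doublet removal. The valve interstitial-like class is thus not told apart from other fibroblast-like cells for Dicer1 under every setting. The other fibroblast-like class did not hold the same clusters throughout. With the stricter filter and without the differing genes it took in a cluster led by Sfrp2. Nfatc1 stood there at 46.7 and 54.9 CPM over both libraries. In the main clustering a cluster led by Sfrp2, cluster 5, carried no class name.

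In the remaining large classes the Dicer1 ratios were smaller. Coronary capillary endothelial-like cells had 59.1 CPM in the mutant and 74.4 CPM in the control library, a log2 ratio of -0.33 (-0.47 to -0.19). The difference of this class from the pool was -0.19 (-0.41 to 0.02), and -0.25 (-0.48 to -0.02) at resolution 1.5. Its difference from valve interstitial-like cells was not taken. Arterial endothelial-like cells had 80.1 and 94.96 CPM, and other fibroblast-like cells 52.0 and 54.8 CPM. The log2 ratio of the fibroblast-like class was -0.08, but -0.37 with the stricter cell filter and -0.35 when clustered without genes that differ between the libraries. Among mural-, cardiomyocyte- and macrophage-like cells the log2 ratios lay between -0.18 and -0.03, each with an interval that spans 0. The lymphatic endothelial-like cells, only 30 mutant and 40 control cells, had 10 and 18 Dicer1 UMIs and a log2 ratio of -1.36 (-2.67 to -0.20). Nfatc1 stood at 136 CPM in the mutant and 174 CPM in the control cells of that class.

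**Figure D1:**
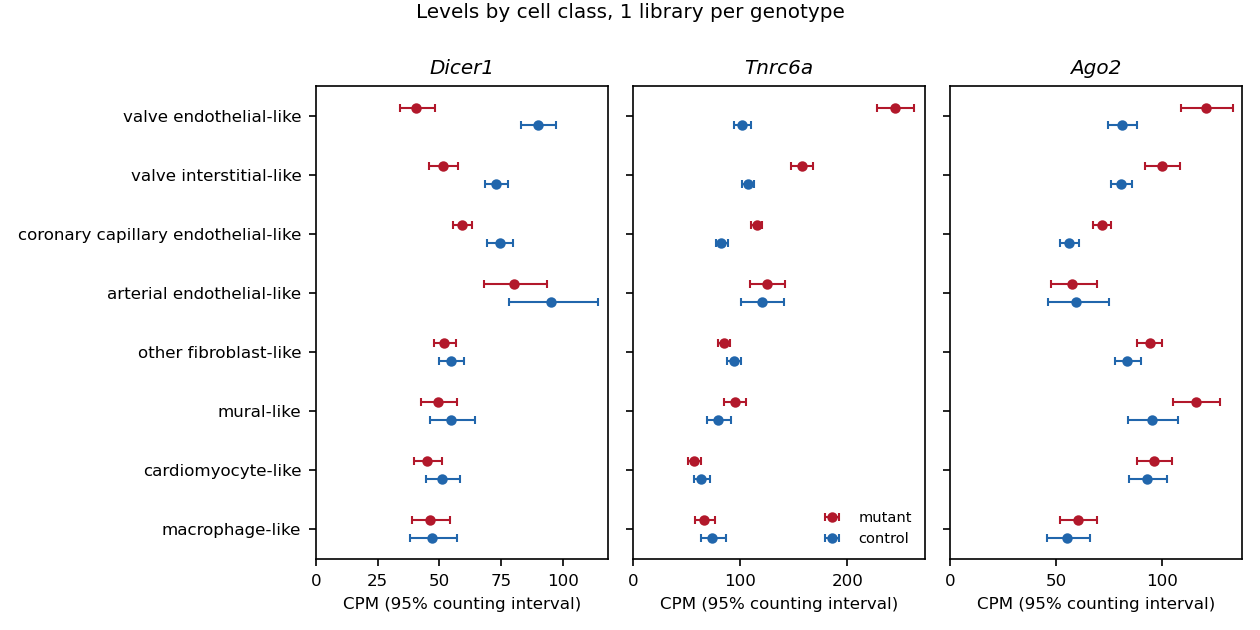
Level of Dicer1, Tnrc6a and Ago2 in CPM (x axes, from 0) in the 8 classes with at least 100 cells in each library, for the mutant (red, upper point) and the control library (blue, lower point), with exact 95% Poisson intervals. Mutant valve endothelial-like cells sit at 40.6 CPM for Dicer1 and 244 CPM for Tnrc6a, against 89.8 and 102 CPM in control cells.

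The order of classes for Dicer1 differed between the libraries. In the mutant library arterial endothelial-like cells stood first, at 80.1 CPM and apart from the next class, and valve endothelial-like cells stood last, at 40.6 CPM. From coronary capillary endothelial-like cells downward each class overlapped its neighbour. In the control library the order began with arterial endothelial-like cells at 94.96 CPM and valve endothelial-like cells at 89.8 CPM, which overlap. Coronary capillary endothelial-like and valve interstitial-like cells followed at 74.4 and 72.9 CPM, then, apart from these, other fibroblast-like, mural-, cardiomyocyte- and macrophage-like cells between 46.9 and 54.8 CPM. The highest class had 1.97 times the lowest in the mutant and 2.03 times in the control library. Over the 8 control classes, the genes whose log2(CPM + 1) followed Dicer1 most closely among 9208 genes were Col18a1 (Pearson r 0.982), Ptprb (0.976), Hyal2 (0.975), Ginm1 (0.975) and Sugp1 (0.970). Among the other members the closest was Tnrc6a, at an r of 0.81. These are descriptions over 8 classes of a single library.

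Within each valve class the clusters gave the same picture for Dicer1. Cluster 6 had 40.02 CPM in mutant and 85.5 CPM in control cells, and cluster 11 had 41.2 and 95.5 CPM. The difference between the log2 ratios of cluster 11 and cluster 6 was -0.11 (-0.69 to 0.46), so they were not distinguishable at this depth. Cluster 1 of the valve interstitial-like class had 52.3 CPM in mutant and 70.0 CPM in control cells, and cluster 8 had 48.9 and 83.8 CPM. The log2 ratios were -0.42 in cluster 1 and -0.77 in cluster 8, with a difference that spans 0 (-0.83 to 0.11). Nfatc1 in cluster 8 stood at 80.3 CPM in mutant and 149 CPM in control cells.

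3 clusters carried no class name. Clusters 3 and 5, placed between valve interstitial and other fibroblast markers, had Dicer1 log2 ratios of -0.32 (-0.52 to -0.13) and -0.51 (-0.81 to -0.22). Cluster 14, also placed between these markers and of low UMI count, had 34 mutant and 11 control UMIs of Dicer1. Its log2 ratio was 0.86 (-0.11 to 2.04), which its counts cannot tell from 0. Top2a, a marker of cycling cells, stood at 966, 24.1 and 481 CPM in clusters 3, 5 and 14 over both libraries. In clusters 1 and 8 it stood at 20.3 and 12.6 CPM, so the cycling cells of cluster 3 are outside the valve interstitial-like class. Across the 15 clusters with at least 100 cells in each library, the Nfatc1 level of the control library and the Dicer1 log2 ratio had a Pearson r of -0.47 and a Spearman rho of -0.63. For Tnrc6a these were 0.72 and 0.70, for Ago1 -0.51 and -0.65, for Drosha 0.33 and 0.59 and for Tarbp2 0.55 and 0.48, and the other 5 members had an r between -0.36 and 0.44. The points share both libraries and their depth difference, and the values are descriptive.

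**Figure D2:**
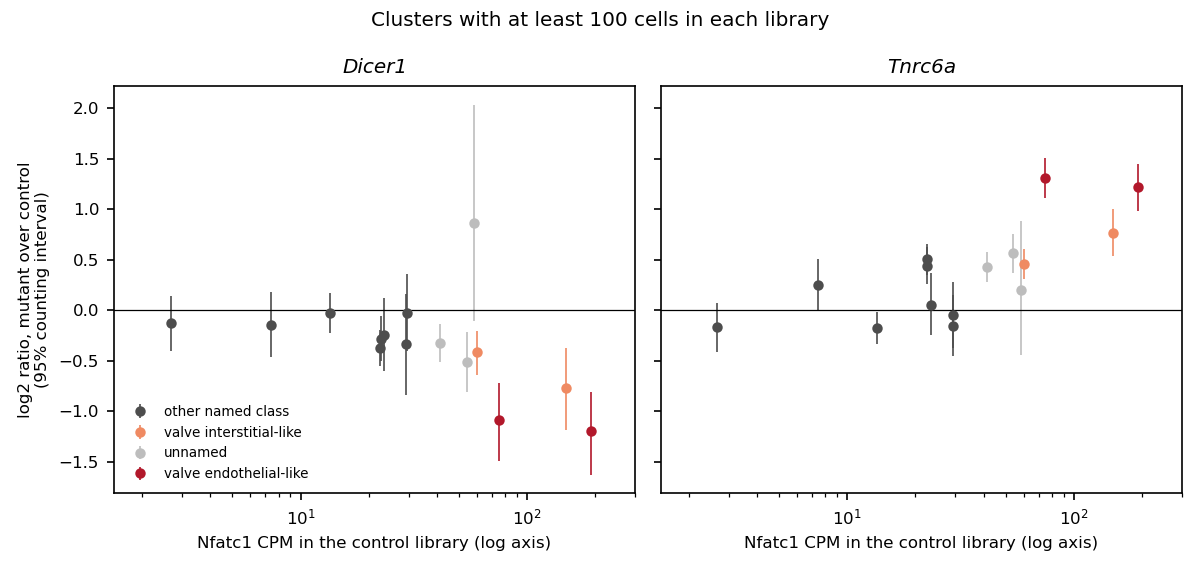
Log2 ratio of mutant over control CPM (y axis, bars are 95% counting intervals) of Dicer1 and Tnrc6a against the Nfatc1 level in the control library (x axis, log scale) for the 15 clusters with at least 100 cells in each library. The valve endothelial-like clusters lie near -1.1 and -1.2 for Dicer1 and near 1.3 and 1.2 for Tnrc6a.

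Tnrc6a (ENSMUSG00000052707, GRCm38 chr7:123123885-123195296, plus strand, 24 exons), the GW182 scaffold, differed in the other direction and carried the largest ratio of the 10 genes in valve endothelial-like cells. There 788 UMIs gave 244 CPM (227 to 262) in mutant cells, and 690 UMIs gave 102 CPM (94.3 to 110) in control cells. The log2 ratio was 1.26 (1.11 to 1.41), or 2.40-fold. Valve interstitial-like cells had 157 CPM in the mutant and 107.3 CPM in the control library, a log2 ratio of 0.55 (0.43 to 0.67). The pooled other classes had 73.3 and 71.4 CPM, and a ratio of 0.04 (-0.10 to 0.18).

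Set against the pool, the Tnrc6a difference was 1.22 (1.02 to 1.43) in the valve endothelial-like class and 0.52 (0.33 to 0.70) in the valve interstitial-like one. Valve endothelial-like cells exceeded valve interstitial-like cells by 0.71 (0.52 to 0.90) and coronary capillary endothelial-like cells by 0.78 (0.59 to 0.97). Coronary capillary endothelial-like cells themselves had 115 CPM in the mutant and 82.5 CPM in the control library, with a difference from the pool of 0.44 (0.26 to 0.63). Other fibroblast-like cells had 85.1 and 93.8 CPM, and arterial endothelial-like cells 125 and 120 CPM. The class order of the mutant library placed valve endothelial-like cells first and valve interstitial-like cells second, each apart from the next. In the control library each of the 8 classes overlapped its neighbour for Tnrc6a.

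Both valve endothelial-like clusters shared the Tnrc6a difference. Cluster 6 had 261 CPM in mutant and 106 CPM in control cells, and cluster 11 had 225 and 96.8 CPM. The valve interstitial-like clusters were less alike: the log2 ratio was 0.46 in cluster 1 and 0.77 in cluster 8, a difference of 0.31 (0.04 to 0.59). Unnamed clusters 3 and 5 had log2 ratios of 0.42 and 0.56.

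Of the Argonautes, which hold the guide strand, Ago2 (ENSMUSG00000036698, GRCm38 chr15:73095844-73184935, minus strand) had the clearest difference. In valve endothelial-like cells 389 UMIs gave 121 CPM in mutant cells and 548 UMIs gave 80.8 CPM in control cells. The log2 ratio of 0.58 (0.38 to 0.77) is 1.49-fold, just under the 1.5-fold used for counting genes as apart. Valve interstitial-like cells had 99.7 CPM in the mutant and 80.4 CPM in the control library, and the pooled other classes 92.6 and 86.1 CPM. The Ago2 difference from the pool was 0.47 (0.24 to 0.70) in the valve endothelial-like class and 0.21 (0.01 to 0.40) in the valve interstitial-like one. It was not limited to the valve classes: coronary capillary endothelial-like cells had 71.6 CPM in the mutant and 56.0 CPM in the control library, 0.25 (0.06 to 0.44) above the pool. With each cell classed by its own markers, these 3 differences from the pool were 0.25 (-0.01 to 0.50), 0.07 (-0.12 to 0.25) and 0.13 (-0.08 to 0.34). Between valve endothelial-like and coronary capillary endothelial-like cells the Ago2 difference was 0.22 (-0.02 to 0.46), so these classes were not told apart.

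Ago1 lay on the other side of 0 in valve endothelial-like cells, at 25.1 CPM in the mutant and 34.8 CPM in the control library, a log2 ratio of -0.47 (-0.85 to -0.10). Its difference from the pooled other classes, -0.42 (-0.90 to 0.05), spans 0, while that from coronary capillary endothelial-like cells, -0.75 (-1.23 to -0.29), does not. In the control library Ago1 was highest in valve endothelial-like cells and next in macrophage-like cells at 32.6 CPM, and its highest class had 3.52 times the lowest. Ago3 had 37.5 CPM in mutant and 34.8 CPM in control valve endothelial-like cells, and 27.6 and 29.2 CPM in valve interstitial-like cells, with intervals of the ratio across 0. Its log2 ratio was 0.67 in cluster 11 and -0.26 in cluster 6 of the valve endothelial-like class, a difference of 0.94 (0.26 to 1.63). For every other member the interval of that difference spans 0. Ago4 stood at 7.13 and 6.20 CPM in valve endothelial-like cells, under the mean of 10 CPM asked for. Ago1, Ago3 and Ago4 are neighbours on the minus strand of chromosome 4, where the gene body of Ago3 begins 5456 bases past the 3′ end of Ago1, and how tags between such genes were assigned is not given in the sources used here.

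The genes of the steps before DICER1 had log2 ratios smaller in size than those of Dicer1 and Tnrc6a in both valve classes. Drosha stood at 28.5 CPM in mutant and 24.2 CPM in control valve endothelial-like cells, and at 28.5 and 22.8 CPM in valve interstitial-like cells, where the log2 ratio was 0.33 (0.04 to 0.60). Its difference from the pool was 0.35 in valve interstitial-like cells with an interval across 0 (-0.07 to 0.76). Dgcr8 had 25.7 CPM in mutant and 24.9 CPM in control valve endothelial-like cells, which is a ratio on the log2 scale of 0.05 (-0.35 to 0.43). Xpo5 had 18.6 and 21.7 CPM in the same class, a log2 ratio of -0.22 (-0.68 to 0.22). A difference within these intervals was not detectable at this depth. Dgcr8 overlaps Trmt2a, and Ago2 overlaps Chrac1, each on the opposite strand, and whether strand was used in counting is not given in the sources used here, so their tags cannot be told apart with certainty. On the same strand, where strand does not help, Tnrc6a overlaps the predicted gene Gm45846 and Drosha overlaps Gm47288, and Dgcr8 and Ago4 also overlap small or predicted genes.

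Tarbp2, the partner of DICER1, had 49.9 CPM in mutant and 38.9 CPM in control valve endothelial-like cells. The log2 ratio was 0.36 (0.07 to 0.65) and exceeded the pool by 0.49 (0.12 to 0.85). Coronary capillary endothelial-like cells had 35.2 CPM in the mutant and 29.3 CPM in the control library. In arterial endothelial-like cells the values were 41.1 CPM from 80 UMIs in the mutant and 24.2 CPM from 29 UMIs in the control library, a log2 ratio of 0.75 (0.14 to 1.43). The difference from the pool was 0.39 in coronary capillary and 0.88 in arterial endothelial-like cells. With each cell classed by its own markers it was 0.36 (-0.06 to 0.77) in valve and 0.28 (-0.25 to 0.83) in arterial endothelial-like cells.

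**Figure D3:**
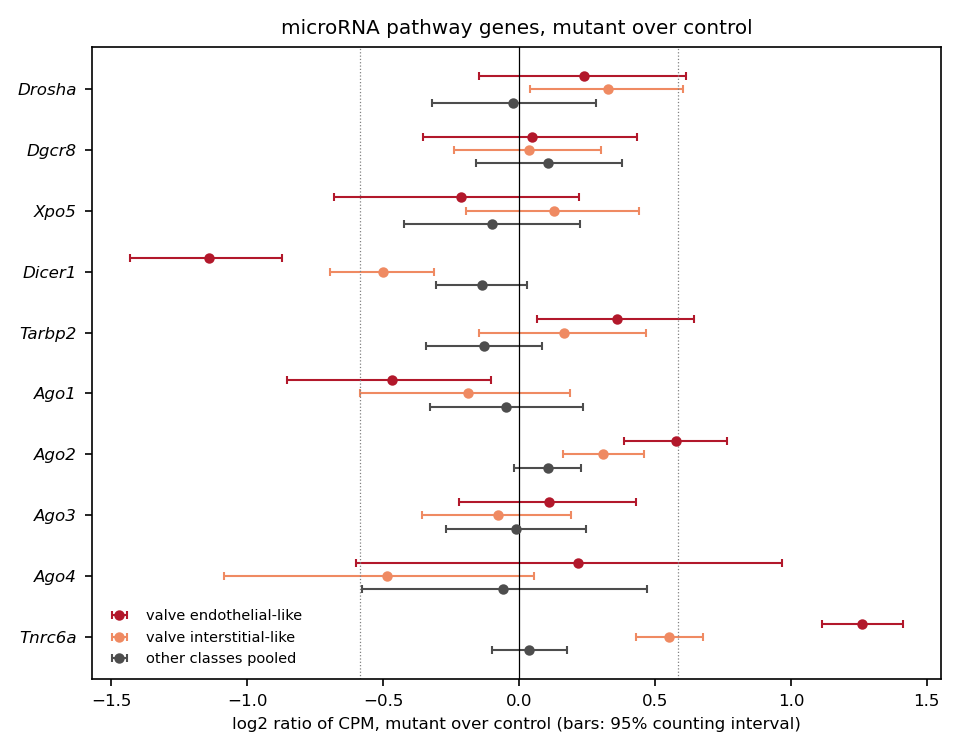
Log2 ratio of mutant over control CPM (x axis) of the 10 genes in valve endothelial-like (red), valve interstitial-like (orange) and pooled other cells (grey), with exact 95% counting intervals, and dotted lines at 1.5-fold. Dicer1 and Tnrc6a lie past the dotted lines in valve endothelial-like cells, on opposite sides, and the pooled other classes stay near 0.

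The count of members past 1.5-fold is read against that of all genes. In valve endothelial-like cells 9 of the 10 genes reached a mean of 10 CPM. 1 of them, Tnrc6a, was at least 1.5-fold higher in the mutant library, as were 7.44% of the 8645 genes tested, and 1, Dicer1, was at least 1.5-fold lower, as were 4.33% of them. A count of 1 in 9 in each direction is near these shares, so the count says nothing particular of the 10 genes. Their median log2 ratio was 0.11, against 0.06 over all genes tested. Of the 9 genes measured in valve interstitial-like cells 0 lay past 1.5-fold in either direction, where 3.05% of 8525 genes were higher and 1.58% lower. Their median was 0.13, against 0.03 over all genes. In the pooled other classes 0 of 9 lay past 1.5-fold, where 0.848% of genes were higher and 1.14% lower, at a median of -0.02 against 0.00. Among the other 6 large classes the calls were 1 for Tarbp2, higher in arterial endothelial-like cells, where 4.31% of genes were higher and 4.52% lower, and 1 for Xpo5, lower in macrophage-like cells, where 3.01% were higher and 2.56% lower. In the remaining 4 classes 0 members were called. There the shares of all genes higher and lower were 0.52% and 0.322% in coronary capillary endothelial-like, 0.587% and 0.196% in other fibroblast-like, 3.04% and 0.996% in mural-like and 1.25% and 1.62% in cardiomyocyte-like cells. Xpo5 in macrophage-like cells rested on 27 mutant and 33 control UMIs, at 8.77 and 15.2 CPM.

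**Figure D4:**
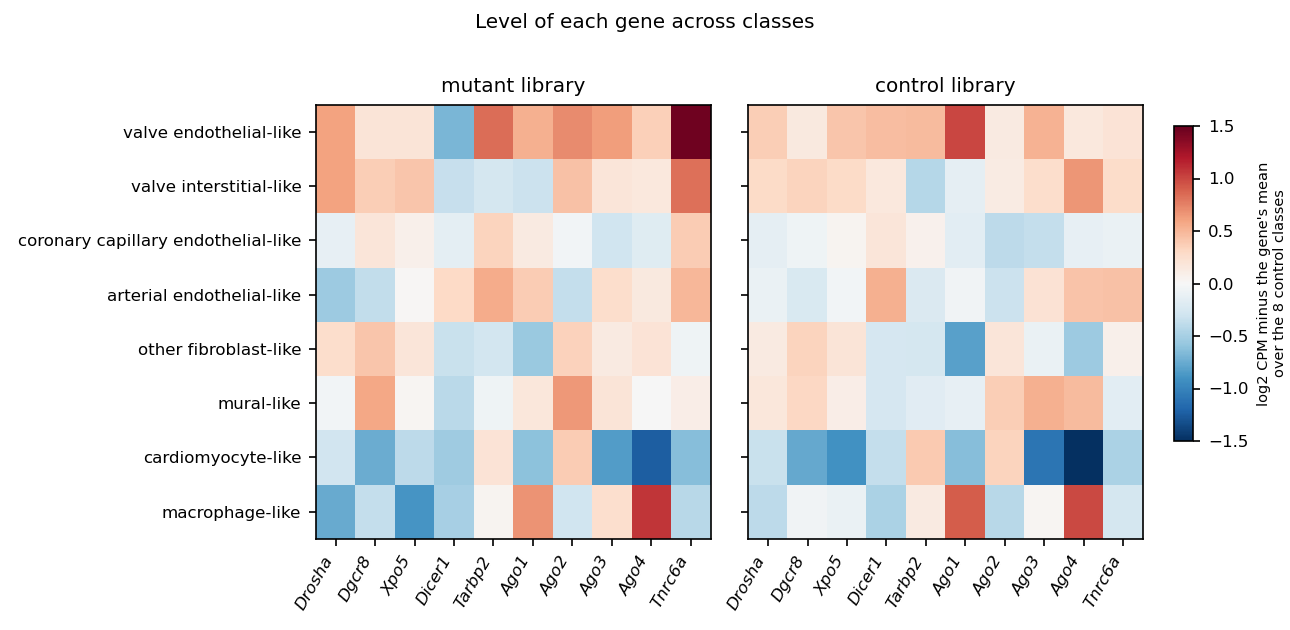
Level of each of the 10 genes (columns) in the 8 large classes (rows) of the mutant (left) and the control library (right), as log2 CPM minus the gene's mean over the 8 control classes. In the valve endothelial-like row Dicer1 is below that mean in the mutant and above it in the control library, and Tnrc6a is the darkest red cell of the mutant map.

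The share of cells with a UMI showed the same contrast once depth was equal. Valve endothelial-like cells had a median of 9807 UMIs in the mutant and 5163 in the control library. Dicer1 was seen in 30.7% of mutant and 35.6% of control cells of that class as sequenced, and in 7.83% and 15.7% of them when each cell was thinned to 2000 UMIs, which kept 309 mutant and 1213 control cells. Tnrc6a was seen in 82.6% of mutant and 40.8% of control cells as sequenced, and in 38.4% and 18.3% at 2000 UMIs. For Ago2 the thinned shares were 20.6% in mutant and 13.7% in control cells. In valve interstitial-like cells the thinned shares of Dicer1 were 9.48% and 13.3%, and those of Tnrc6a 25.6% and 19.1%. No class in these libraries is known to lack these widely expressed genes, so a share from free RNA could not be measured.

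Since the pools differed in sex, the ratios were also taken between female-type cells only. In valve endothelial-like cells Dicer1 then had 41.7 CPM in the mutant and 89.4 CPM in the control library, a log2 ratio of -1.09 (-1.48 to -0.74). Male-type mutant cells had 37.5 CPM, and their log2 ratio to female-type mutant cells was -0.15 (-0.71 to 0.39). Tnrc6a had 256 CPM in female-type mutant, 237 CPM in male-type mutant and 102 CPM in female-type control cells of that class. The female-type log2 ratios in valve interstitial-like cells were -0.60 (-0.84 to -0.37) for Dicer1 and 0.58 (0.44 to 0.72) for Tnrc6a.

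**Figure D5:**
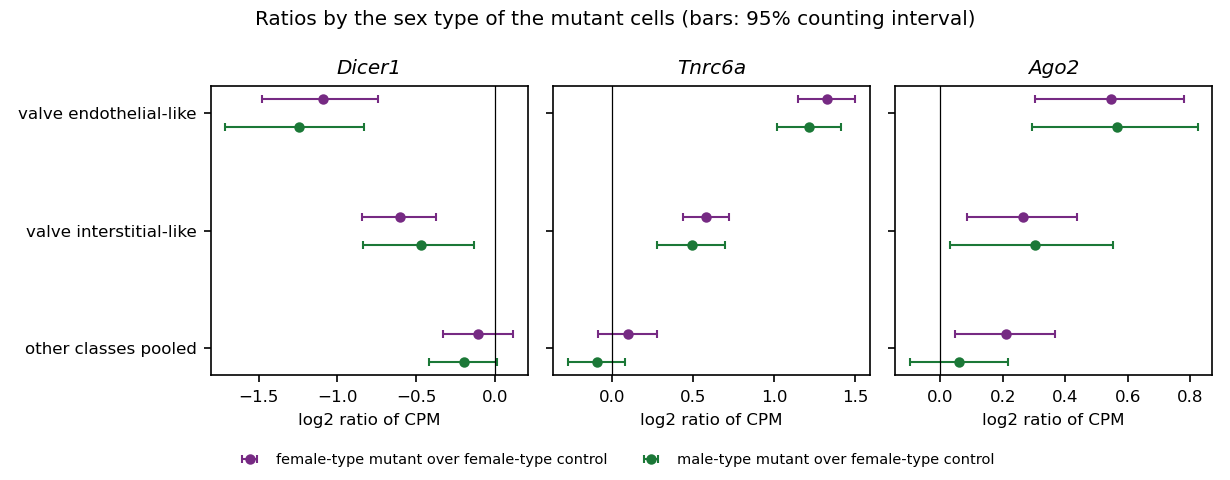
Log2 ratio of CPM (x axes, bars are 95% counting intervals) of Dicer1, Tnrc6a and Ago2 in 3 groups of cells, for female-type mutant (purple) and male-type mutant cells (green), each over female-type control cells. In valve endothelial-like cells both sex types lie below -1 for Dicer1 and above 1 for Tnrc6a.

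The summed markers of some other cells differed between the libraries in the valve endothelial-like class. Other sums were close, with 82.7 CPM in mutant and 83.2 CPM in control cells for mural markers, and 416 and 403 CPM for lymphatic endothelial markers. The 12 valve interstitial markers summed to 715 CPM in mutant and 1149 CPM in control cells, with none at 0, and the 10 other fibroblast markers to 849 and 532 CPM, with 1 and 0 of them at 0. Both lists were split, with 5 of the 12 and 6 of the 10 markers higher in the mutant library. The 9 macrophage markers summed to 45.2 CPM in mutant and 22.7 CPM in control cells, with 0 and 1 at 0, and the 8 monocyte or dendritic cell markers to 33.5 and 4.43 CPM, with 2 and 1 at 0. The 7 erythroid markers summed to 24.5 CPM in mutant and 521 CPM in control cells, with 3 and 2 of them at 0. The median mitochondrial share was 4.78% in mutant and 4.69% in control cells of this class, 3.83% and 2.93% in valve interstitial-like cells, and 4.28% and 3.63% in the pooled other classes. In valve interstitial-like cells the 8 endothelial markers summed to 93.1 CPM in mutant and 62.9 CPM in control cells, and the erythroid markers to 57.0 and 449 CPM. The part of these differences in the ratios of the 10 genes was not tested.

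The rest of the pathway was read from lists of named genes, by the same 1.5-fold and 10 CPM. Over all genes tested in valve endothelial-like cells, 7.44% were higher and 4.33% lower, at a median of 0.06. There 0 of 9 Microprocessor cofactors lay past 1.5-fold, with a median of 0.19. Their largest ratios were those of Ncbp1, a cap-binding subunit, at 42.1 CPM in mutant and 32.3 CPM in control cells, of Hnrnpa1, an RNA-binding protein that remodels some primary hairpins, at 511 and 429 CPM, and of Ddx5, an RNA helicase of the Microprocessor, at 965 and 818 CPM. None, 0 of 9, lay past 1.5-fold in the valve interstitial-like class, beside 3.05% of all genes higher and 1.58% lower. Ddx5 had 833 CPM in mutant and 685 CPM in control cells of that class. Of 4 export and DICER1 partner genes 0 lay past 1.5-fold in valve endothelial-like cells, beside the same 7.44% and 4.33% of all genes. Ran, the GTPase that exportins need, had 462 CPM in mutant and 366 CPM in control valve endothelial-like cells.

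Argonautes are loaded with the help of the HSP90 chaperone machinery, and 7 of 8 genes of that list lay above 0 in valve endothelial-like cells, as did 56.6% of all genes, at a median of 0.38 against 0.06 over all genes. The 1 past 1.5-fold, beside 7.44% of all genes that were higher in the class, was Hsp90aa1, an HSP90 gene, with 575 CPM in mutant and 378 CPM in control cells, a log2 ratio of 0.61 (0.52 to 0.69). Ahsa1, which activates the HSP90 ATPase, had 64.4 and 45.0 CPM, and Stip1, which links HSP70 to HSP90, had 94.8 and 67.1 CPM. In valve interstitial-like cells 0 of 7 measured genes lay past 1.5-fold, beside 3.05% of all genes higher and 1.58% lower. The median of the list was 0.12 there, against 0.03 over all genes, and -0.05 in the pooled other classes, against 0.00.

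Among 23 silencing and decay effectors 2 were at least 1.5-fold higher in mutant valve endothelial-like cells and 0 lower, beside 7.44% and 4.33% of all genes, with a median of 0.06 that equals that of all genes. Mov10, a helicase that binds Argonaute, had 36.6 CPM in mutant and 22.6 CPM in control cells. Tnrc6b, a paralog of Tnrc6a, had 228 CPM in mutant and 147 CPM in control cells, a log2 ratio of 0.63 (0.49 to 0.77), and 155 and 120 CPM in valve interstitial-like cells. Its 3′ UTR of 11609 bases held 3 copies of the miR-30 heptamer, which 66.1% of the 59 UTRs of similar length hold. That UTR also held 4 copies of the miR-19 heptamer, a number reached by 1 of the 59, that of Tnrc6b itself. Cnot1, the scaffold of the CCR4-NOT deadenylase, had 97.9 CPM in mutant and 71.1 CPM in control valve endothelial-like cells, and 74.4 and 59.3 CPM in valve interstitial-like cells. In the pooled other classes Tnrc6b had 106.9 and 102 CPM and Cnot1 had 60.2 and 57.8 CPM. The Tnrc6b difference was not limited to the valve classes. Coronary capillary endothelial-like cells had 101.7 CPM in the mutant and 75.4 CPM in the control library. Their log2 ratio of 0.43 (0.31 to 0.56) stood beside 0.37 (0.25 to 0.49) in valve interstitial-like cells. Mov10 had 12.8 and 9.74 CPM and Cnot1 60.9 and 58.5 CPM in coronary capillary endothelial-like cells.

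Genes that control precursors or degrade small RNAs numbered 11 measured of 14, of which 0 lay past 1.5-fold in either valve class. Over all genes, 7.44% were higher and 4.33% lower in valve endothelial-like cells, and 3.05% and 1.58% in valve interstitial-like cells. Eri1, an exonuclease, had 34.1 CPM in mutant and 28.2 CPM in control valve endothelial-like cells. Of 29 microRNA host transcripts 28 were in the files and 23 were measured in valve endothelial-like cells, with 1 higher and 1 lower, beside 7.44% and 4.33% of all genes. Srebf2, which hosts miR-33, had 22.6 CPM in mutant and 13.4 CPM in control cells, and Mir100hg, the host of miR-100, let-7a-2 and miR-125b-1, had 30.1 and 50.9 CPM, a log2 ratio of -0.75 (-1.10 to -0.43). Of 22 measured in valve interstitial-like cells 0 were higher and 2 lower, beside 3.05% and 1.58% of all genes. Dleu2, the host of miR-15a and miR-16-1, had 59.1 CPM in mutant and 110 CPM in control cells there, a log2 ratio of -0.90 (-1.07 to -0.73). Myh6, a cardiac myosin gene that hosts miR-208a, had 8.98 and 13.7 CPM and is itself a cardiomyocyte marker.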

How the data were processed

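Single-cell 3′ libraries of 1 mutant and 1 control pool were deposited by the authors as raw UMI counts per gene and barcode. The submitters' processing notes name Cell Ranger 5.0.0 and mm10. The counting options are not given in the sources used here. The depth per library is given with the cells. Barcodes were kept with at least 500 genes, 1000 UMIs and under 20% mitochondrial UMIs. Scrublet in scanpy 1.11.5, at 0.8% per 1000 barcodes, removed 3.33% of mutant and 4.29% of control cells, where 5.12% and 8.61% were expected, so some doublets stayed. The libraries were clustered jointly on 2000 variable genes without the 10 members, with 30 components, 15 neighbours and leidenalg 0.10.2 at resolution 0.8. A cluster was named "-like" from at least 3 markers seen in 10% of its cells at 1.5-fold over the median cluster, with a lead of 0.5 log2 over the next class.

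UMIs were summed per class and library and divided by the class total (CPM). Log2 ratios add 0.5 counts and carry exact conditional Poisson intervals, and shares exact binomial ones (scipy 1.17.1), all at 95% and for counting error only. Ratios were checked on simulated counts. A gene was counted as apart at 1.5-fold with a mean of at least 10 CPM. Beside the members, the text names of each pathway list up to 3 genes with the largest absolute ratio in valve endothelial-like and 2 in valve interstitial-like cells. It also names the 5 genes most like Dicer1 across classes, among those at 20 CPM or more in a class. The members, markers and lists were chosen with earlier results of these data known. Of 32285 gene identifiers 32235 were found in GENCODE M21, and the 3′ UTR searched was that of the transcript with the longest coding sequence. Alternatives were a stricter cell filter, no doublet removal, resolution 1.5, other clustering genes, a class per cell, another weighting, thinning to 2000 UMIs, centring, equal cluster weights, female-type cells only, other fold and level limits and, chosen after seeing the data, a wider valve interstitial-like class.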

Additional observations from a re-analysis of the deposited data

How the results depend on the processing

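No paired analysis was possible because the labels carry no replicate numbers and each genotype has 1 library, which also means that no library could be left out. The log2 ratio of Dicer1 in valve endothelial-like cells ranged from -1.23 to -1.03 over 10 alternatives, that in valve interstitial-like cells from -0.60 to -0.41 over 11, and that in the pooled other classes from -0.18 to -0.08. The difference between valve endothelial-like cells and the pool ranged from -1.06 to -0.88. Tnrc6a ranged from 1.19 to 1.33 in valve endothelial-like and from 0.47 to 0.58 in valve interstitial-like cells, Ago2 from 0.41 to 0.68 and Ago1 from -0.59 to -0.41 in valve endothelial-like cells. The count of members past the fold in valve endothelial-like cells was 2 in 10 alternatives, Dicer1 and Tnrc6a, and 3 in the rest, with Ago1 when each cell was classed by its own markers and with Ago2 for the mean over cells and for thinned cells. In valve interstitial-like cells it was 0, except with female-type cells only, where it was 1, Dicer1. The shares of all genes past the fold were not taken under the alternatives, so these counts have no background beside them. Over 14 alternatives and 87 results, 840 of the 849 other values kept to the counting interval of the reported one and 9 did not. Among the latter was Dicer1 in other fibroblast-like cells. It stood at -0.37 under the stricter cell filter and -0.35 when clustered without genes that differ between the libraries. Both settings gave that class name to a cluster led by Sfrp2, as is cluster 5, unnamed in the main clustering. The part of this change of clusters in the shift was not tested. Ago4, with 23 mutant and 42 control UMIs in valve endothelial-like cells, is limited by depth. Differences between classes were recomputed, after seeing the data, under the 6 alternatives that keep whole counts. Those of valve endothelial-like and valve interstitial-like cells from the pool kept their sign and an interval off 0 for Dicer1 and Tnrc6a. The interval reached 0 for Ago2 in 5 of the 6 in valve interstitial-like, 2 in coronary capillary and 1 in valve endothelial-like cells against the pool, and in 3 between the valve classes, and for Tarbp2 in 1 in valve endothelial-like and in 2 of 3 in arterial endothelial-like cells against the pool. For Ago2 between valve endothelial-like and coronary capillary endothelial-like cells the interval reached 0 in all 6.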
